A study of Mus musculus with 2 samples.

Results

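The XY and XX germ cells of mouse foetal gonads were compared after 24 h of organ culture in DMSO, the vehicle of the inhibitors used elsewhere in the series. The comparison took every germ cell library labelled 24 h DMSO, which made 8 of the 40 germ cell libraries of the series. Of these, 4 were XY (replicates 2, 3, 4 and 5) and 4 were XX (replicates 4, 5, 6 and 9), and all 8 belonged to the first of 2 library pools. Both sexes came from the same cross, Swiss with an Oct4(Pou5f1)-eGFP line on a 129svJT2 background, and were labelled WT. Gonads were dissected with the mesonephros at E12.5, sexed by eye from the presence of testis cords, and cultured on membranes. After culture the mesonephros was cut away, several gonads were pooled for each replicate, and GFP-positive cells were sorted as the germ cells. The GFP reporter marks cells that use Oct4 regulatory sequence, and whether the gate took the same share of germ cells in both sexes was not tested. The 3' RNA-seq counts are UMI counts per Ensembl gene. The replicates are labelled as biological, each a pool of gonads, so the p-values measure the spread between such pools. Uncultured germ cells (0 h, 4 XY and 4 XX) and germ cells cultured for 72 h in DMSO (4 XY and 4 XX) served to place the 24 h difference in time. The 0 h libraries were in the first pool too, and the 72 h DMSO libraries in the second. A change from 24 h to 72 h therefore cannot be told apart from a change of pool.

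In the foetal ovary, germ cells leave mitosis and enter meiosis after exposure to BMP and retinoic acid signals. BMP signals act through SMAD proteins on genes such as Id1 and Gata2, and the STRA8 and MEIOSIN proteins switch on the genes of the meiotic chromosome axis and of recombination. In the foetal testis, Sertoli cells secrete FGF9 and other signals, germ cells pass through a period of NODAL signalling, arrest in G1, and take up a male programme with the RNA-binding protein NANOS2, the piRNA pathway and new DNA methylation.

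Total counts ran from 2044852 to 3781288 per library. The first principal component held 57.0% of the variance and separated the sexes. XX replicate 6 and XY replicate 3 stood apart from their groups on the second component (12.5%) and had the lowest quality weights in the fit, 0.57 and 0.60. Levels are given in CPM, a gene's counts relative to its library's total, on the usual scale and after TMM scaling. All 8 germ cell markers examined were present in both sexes, with mean levels of 68.5 to 1995 CPM in XY and 11.9 to 1463 CPM in XX germ cells. The XX libraries held 19 to 57 counts of 8 Y-linked genes, against 3 to 8 in the XX 0 h libraries. Each XX 24 h library shared its sample index with an XY 72 h FGFRi library of the other pool. Its Y-linked counts were 3.36% to 4.43% of the counts in that library, and 3.79% over all 4. The XY 24 h libraries shared indexes with XY 72 h MEKi libraries. Differences are therefore also given after 3.79% of the partner's counts had been subtracted, where this changed a call or moved a value given here by over 1.5 times, with Y-linked genes mostly by their median. The cause of the Y-linked counts was not tested. The share was set from the XX 24 h libraries alone. It was assumed for every other library of the first pool that had such a partner, the XY and the 0 h libraries included.

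After 24 h, 1524 of 15252 tested genes (9.99%) differed between XY and XX germ cells by more than 1.5-fold at an FDR under 0.05 (limma treat with Benjamini-Hochberg adjustment, which gives every FDR). Of all tested genes, 610 (4.00%) were higher and 914 (5.99%) lower in XY. Genes passing this test are called DEGs here, and log2 fold changes are XY minus XX, given with ± SE. The 4 XY and 4 XX values did not overlap for 600 of the higher and 883 of the lower DEGs, beside 33.2% of all tested genes, 16.2% with XY above and 17.1% with XY below. The median fold was 3.06 among the higher DEGs (quartiles 2.35 and 5.17) and 3.95 among the lower DEGs (2.67 and 6.20). Over 4-fold were 214 higher and 450 lower DEGs, and over 16-fold were 33 and 26. The median log2 fold change over all tested genes was -0.01. Without XX replicate 6 and XY replicate 3, which stood apart, 522 were higher and 743 lower. With the partner counts subtracted, 703 of 15164 genes (4.64%) were higher and 1029 (6.79%) lower, 598 and 898 of them called with the counts as deposited too.

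Before culture, 205 genes were higher (1.34% of those tested) and 252 lower (1.65%) in XY. With the same call at 0 h and 24 h, 119 higher DEGs (19.51% of those at 24 h and 58.0% of those at 0 h) and 175 lower DEGs (19.1% and 69.4%) were shared between the times. The difference was larger at 24 h than at 0 h for 1426 of the 1524 genes called at 24 h and for 220 of the 457 called at 0 h, and each choice of genes favours its own time. At 72 h, in the second pool, 3482 genes (22.8%) had more and 2768 (18.1%) had less RNA in XY than in XX. Shared with 24 h were 347 higher (56.9% of the 24 h and 9.97% of the 72 h DEGs) and 442 lower DEGs (48.4% and 15.97%). The 3 comparisons shared no library.

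Markers of the gonad's other cells were low in both groups. The 9 Sertoli cell markers summed to 25.8 to 122 CPM of the unscaled totals in the XY libraries and 10.0 to 19.4 in the XX libraries (exact two-sided permutation test, p = 0.0286, the smallest that 4 against 4 allows, and 0.143 after Benjamini-Hochberg adjustment over 5 marker lists). Sox9, which drives Sertoli cell fate, was a DEG (log2 fold change 2.64 ± 0.65, FDR 0.0161), and not a DEG in 1 omission (2.46, FDR 0.0745, without XX replicate 9). It stood at 60.1, 18.8, 7.56 and 9.74 CPM in XY replicates 2, 3, 4 and 5. The gene stood at 2.18, 2.36, 3.47 and 1.596 CPM in XX replicates 4, 5, 6 and 9, below every XY library. The Sertoli sum and Sox9 were highest in XY replicate 2. Pre-granulosa markers came to means of 26.8 and 22.3 CPM in XY and XX, interstitial and Leydig markers to 29.8 and 22.05, endothelial markers to 74.9 and 103 (3.10 CPM higher in XY without Pecam1, which germ cells also use), and blood markers to 89.7 and 37.1. Of 5 tested pre-granulosa markers, Rspo1 was higher (log2 fold change 1.40 ± 0.28, but 1.29 to 1.38, FDR 0.0512 to 0.0815, without XY replicate 2 or 3 or XX replicate 4, 5 or 6) and Bmp2 lower (-3.32 ± 0.70, but -1.87, FDR 0.220, without XY replicate 5), and Wnt4 was lower after subtraction (-2.39). None of the 4 sums differed by the exact test after adjustment (adjusted p from 0.143 to 0.314). Over 5 lists, 1 list alone cannot fall below 0.143 by this test, so it could hardly find a difference. Before adjustment its p ran from 0.0571 (interstitial and Leydig) to 0.314 (pre-granulosa), with 0.0857 for blood markers. Insl3, the Leydig cell hormone, was at 0 in all 8 libraries. In bulk samples such as these, fewer cells of a type and less RNA per cell cannot be told apart. The part these cells have in the differences between the sexes was not tested.

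NODAL pathway genes were higher in XY germ cells. Of 16 listed genes 14 were tested, 7 were higher and 0 lower by limma treat, beside 4.00% and 5.99% of all tested genes, and the median log2 fold change of the list was 1.01. At an unadjusted p under 0.05, 7 were higher and 0 lower, and edgeR and DESeq2 gave the same 7 and 0. Lefty1 (ENSMUSG00000038793, chr1:180762587-180765971, + strand), a secreted inhibitor that NODAL induces against itself, stood at 101, 60.9, 125 and 109.6 CPM in XY replicates 2, 3, 4 and 5. It stood at 1.56, 8.51, 2.48 and 1.996 CPM in XX replicates 4, 5, 6 and 9 (log2 fold change 5.05 ± 0.45, FDR 2.53e-11). Every XY library lay far above every XX library, and XX replicate 5 was the highest of its group. Lefty2 (ENSMUSG00000066652, chr1:180720635-180726932, + strand), the neighbouring gene of the same kind, was at 79.8, 51.1, 94.2 and 74.9 CPM in the XY and at 0.934, 3.31, 2.97 and 1.996 CPM in the XX libraries (log2 fold change 5.11 ± 0.46, FDR 2.73e-11). XY replicate 3 was the lowest XY library for both genes. Coordinates are those of the whole gene in GRCm39, counted from 1.

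Nodal (ENSMUSG00000037171, chr10:61253587-61261117, + strand), the ligand, was low in both sexes, at 3.63, 3.13, 8.60 and 9.74 CPM in the XY and at 0.622, 2.36, 0.991 and 0 CPM in the XX libraries (log2 fold change 3.21 ± 0.67, FDR 0.00248). The groups did not overlap, but XX replicate 5 lay close to the lowest XY library. Nodal was not a DEG once the library with no count was left out (2.33, FDR 0.0574, without XX replicate 9). Its co-receptor Tdgf1, listed in the annotation as Cripto, was at 9.33, 5.21, 14.8 and 7.57 CPM in the XY and at 0.311, 0.945, 0.496 and 1.996 CPM in the XX libraries, with a log2 fold change of 3.06 ± 0.60. Again all XY libraries exceeded all XX libraries. Otx2, a transcription factor that NODAL induces, was at 26.4, 30.7, 52.3 and 40.04 CPM in the XY and at 1.56, 0.945, 1.49 and 1.596 CPM in the XX libraries (log2 fold change 4.58 ± 0.49, FDR 5.96e-09). For Otx2 the lowest XY library was several times the highest XX library. Gdf3, a related ligand, differed by 1.38 ± 0.20. The receptors and SMADs that carry the signal, Acvr1b, Acvr2a, Acvr2b, Smad2, Smad3 and Smad4, were not DEGs, with log2 fold changes from -0.21 for Smad2 to 0.64 for Smad3. At 0 h, 6 of the 14 were already higher.

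BMP target genes showed the opposite direction. Of 10 tested, 6 were lower in XY and 0 higher, with a median log2 fold change of -3.09. At an unadjusted p under 0.05, 0 were higher and 6 lower, and edgeR and DESeq2 also gave 6 lower and 0 higher, beside 5.99% and 4.00% of all tested genes by limma treat. Gata2 (ENSMUSG00000015053, chr6:88170559-88184018, + strand), a transcription factor induced by BMP in XX germ cells, stood at 5.70, 2.08, 3.44 and 2.98 CPM in the XY and at 171, 134, 104 and 123 CPM in the XX libraries (log2 fold change -5.23 ± 0.41, FDR 3.81e-13). All 4 XX libraries were far above the highest XY library. Id1 (ENSMUSG00000042745, chr2:152566218-152579544, + strand), which encodes an inhibitor of helix-loop-helix factors, was at 11.9, 4.17, 2.75 and 4.87 CPM in the XY and at 109, 129, 128 and 81.0 CPM in the XX libraries (log2 fold change -4.33 ± 0.31, FDR 4.57e-14). Id3, of the same family, was at 51.3, 35.4, 36.4 and 34.4 CPM in the XY and at 224, 287, 273 and 209 CPM in the XX libraries (log2 fold change -2.67 ± 0.18, FDR 3.81e-13). XY replicate 2 held the highest XY value of Id1, Id3 and Gata2, still far below every XX library. Id2 differed by -3.52 ± 0.36. Msx1, a homeobox gene, was at 4.15, 2.08, 0.344 and 0.812 CPM in the XY and at 52.6, 31.2, 36.7 and 49.5 CPM in the XX libraries (log2 fold change -4.98 ± 0.52, FDR 2.18e-09), again with no overlap. Msx2 had 2 counts in the XY and 111 in the XX libraries, a ratio of 58.9 (95% interval 15.9 to 492) in favour of XX, with an interval for counting error only. Id4 (-0.12), Smad6 (-0.81), Smad7 (0.14) and Bambi (0.31) were not DEGs. Zglp1 was not analysed here. Of the BMP receptors and SMADs, 1 of 7 was a DEG, Smad9, with 3 counts in the XY and 49 in the XX libraries, a ratio of 17.3 (95% interval 5.59 to 86.9). At 0 h, 7 of the 10 target genes were lower in XY.

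**Figure D1:**
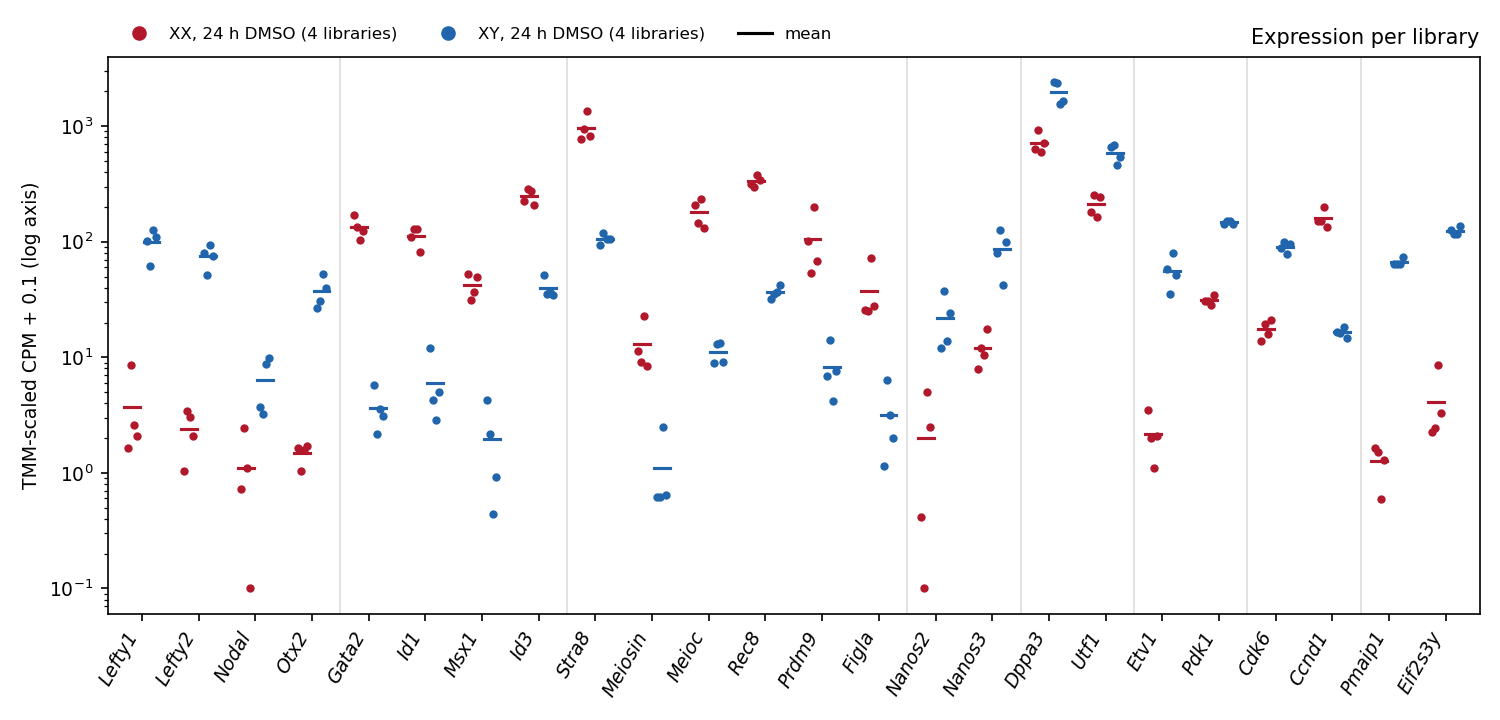
Expression of 24 genes in each of the 8 libraries after 24 h in DMSO, as TMM-scaled CPM plus 0.1 on a log axis. Points are libraries (blue XY, red XX) and short lines are group means. From left to right are genes of the NODAL pathway, BMP targets, meiosis with Figla, Nanos genes, pluripotency genes, Etv1 and Pdk1, cell cycle genes, and Pmaip1 with Eif2s3y. The XY and XX points of Lefty1, Gata2, Stra8 and Rec8 do not overlap.

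Genes of meiosis were lower in XY germ cells, with lower genes in each of the 5 lists. Over the lists together, 56 of 59 genes were tested, 35 were lower and 0 higher by limma treat, beside 5.99% and 4.00% of all tested genes, 51 had a negative fold change, and the median log2 fold change was -1.52. At an unadjusted p under 0.05, 0 were higher and 37 lower, and edgeR and DESeq2 called none higher either. At 0 h, 11 were lower with a median of -0.74, and at 72 h, 48 were lower with a median of -2.31. The meiotic entry genes came first: 4 of 6 tested were lower, with a median of -2.34. Stra8 (ENSMUSG00000029848, chr6:34897098-34916279, + strand), which starts meiosis in response to retinoic acid, stood at 94.4, 119.8, 106 and 106 CPM in the XY and at 775, 938, 1353 and 823 CPM in the XX libraries (log2 fold change -3.12 ± 0.17, FDR 4.38e-17). XX replicate 6 was the highest, and no XX library came near the XY range. Meiosin (ENSMUSG00000085601, chr7:18832971-18852293, - strand), whose protein acts with STRA8, was at 0.518, 0.521, 2.41 and 0.541 CPM in the XY and at 11.2, 8.98, 22.8 and 8.38 CPM in the XX libraries (log2 fold change -3.56 ± 0.60, FDR 1.53e-04). Meioc, needed to leave the mitotic cycle, was at 8.81, 13.0, 13.1 and 8.93 CPM in the XY and at 207, 147, 232 and 131 CPM in the XX libraries (log2 fold change -4.02 ± 0.26, FDR 8.92e-16). The groups of both genes were apart, and only XY replicate 4 exceeded 1 CPM of Meiosin among the XY libraries. Ythdc2, an RNA helicase that works with MEIOC, differed by -1.56 ± 0.23. After subtraction of the partner counts the differences were -3.99 for Stra8, -4.69 for Meiosin and -4.70 for Meioc.

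The chromosome axis and cohesin list had 11 of 14 tested genes lower (median log2 fold change -1.51), beside 5.99% of all tested genes. Rec8 (ENSMUSG00000002324, chr14:55855455-55862852, + strand), the meiotic cohesin subunit, stood at 31.6, 35.4, 36.4 and 41.9 CPM in the XY and at 315, 299.7, 379 and 345 CPM in the XX libraries (log2 fold change -3.12 ± 0.16, FDR 4.29e-18). Rad21l, another meiotic cohesin, differed by -3.30 ± 0.66. Sycp3, a component of the axis, was at 178, 233, 151 and 181 CPM in the XY and at 472, 463, 809 and 453 CPM in the XX libraries (log2 fold change -1.48 ± 0.15, FDR 4.89e-06). The groups of Rec8 and Sycp3 did not overlap, and XX replicate 6 held the highest value of each. Smc1b, a further cohesin subunit, was at 723 ± 128 CPM in the XY and at 1644 ± 335 CPM in the XX libraries (mean ± SD, n = 4 each), and differed by -1.13 ± 0.12. Genes of double-strand break formation were lower in 6 of 8 (median -1.76). Mei1, needed for the breaks, was at 0, 0, 0.344 and 0.812 CPM in the XY and at 15.9, 10.9, 33.2 and 15.6 CPM in the XX libraries (log2 fold change -4.98 ± 0.81, FDR 3.38e-05). Prdm9, the methyltransferase that places the breaks, was at 6.74, 14.1, 4.13 and 7.57 CPM in the XY and at 101, 53.9, 198 and 68.6 CPM in the XX libraries (log2 fold change -3.52 ± 0.36, FDR 5.46e-09). Mei1 was at 0 in XY replicates 2 and 3, and for both genes every XX library exceeded every XY library. After subtraction the differences were -6.34 for Mei1, -5.24 for Prdm9 and -3.95 for Rad21l. Spo11, which encodes the enzyme that makes the breaks, was not a DEG (-1.08 ± 0.47, FDR 0.629).

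Strand exchange and crossover genes were lower in 9 of 22 tested (median -0.76), beside 5.99% of all tested genes. Dmc1, the meiotic recombinase, was at 7.78, 6.77, 11.3 and 11.4 CPM in the XY and at 41.4, 31.2, 72.8 and 31.5 CPM in the XX libraries (log2 fold change -1.92 ± 0.29, FDR 3.01e-04). Rad51ap2 differed by -4.81 ± 0.77 and Meiob, a single-strand DNA binding protein, by -2.44 ± 0.27. Mlh3 (-0.36) and Brca2 (-0.84), which also act in mitotic cells, were not DEGs. The telomere attachment genes had 5 of 6 lower and the lowest median of the 5 lists, -3.10. Majin, which anchors telomeres to the nuclear envelope, was at 0.518, 0.521, 1.03 and 0 CPM in the XY and at 9.96, 10.4, 24.3 and 5.59 CPM in the XX libraries (log2 fold change -4.56 ± 0.75, FDR 4.53e-05). All XX libraries were above all XY libraries. The partner genes Terb1 (-2.90) and Terb2 (-2.21), Kash5 (-3.47) and Spdya (-3.31) were lower as well, and Sun1 (0.07), used in all nuclei, was not a DEG. After subtraction Shoc1 was also lower (-2.48, against -1.68 as deposited), Rad51ap2 differed by -6.27, Terb1 by -3.54, Kash5 by -4.25 and Spdya by -4.16. XX replicate 6 was the highest XX library for Stra8, Meiosin, Meioc, Rec8, Sycp3, Mei1, Prdm9, Dmc1 and Majin alike. Leaving out 1 library at a time gave 10 to 11 lower genes in the axis list, 4 to 6 in the break list and 6 to 10 in the crossover list, with the fewest in the break and crossover lists without XY replicate 5. Without XX replicate 6 and XY replicate 3 together, these 3 lists had 11, 5 and 8 lower genes.

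Promoters of the lower meiosis genes were searched for 6 motifs on both strands, in the 250 bases before the start of the canonical transcript of GENCODE M39. The E-box CACGTG stood in 9 of 35 (25.7%), beside 8.18% of 12419 tested protein-coding genes and 7.82% of all lower DEGs. The STRA8 motif CNCCTCAG stood in 3 of 35 (8.57%), beside 6.77% of all tested and 8.89% of the lower DEGs. The other motifs were a GC-rich SMAD site (GGCGCC, 3 of 35, beside 13.3%), an E2F site (TTTCGCGC, 0 of 35, beside 0.435%), a cyclic AMP response element (TGACGTCA, 0 of 35, beside 2.11%) and the direct repeat that retinoic acid receptors bind (0 of 35, beside 0.0242%). The shares are descriptions without a test. The first 3 sequences below show the STRA8 motif and the last 3 the E-box, in capitals, each as the 120 bases before the start in GRCm39, written 5′ to 3′ on the gene's strand. They lie at chr7:18852294-18852413 (minus strand, Meiosin), chr17:15784615-15784734 (minus, Prdm9), chr17:35265599-35265718 (minus, Msh5), chr17:25023143-25023262 (plus, Meiob), chr9:50472632-50472751 (minus, Tex12) and chr10:88295311-88295430 (plus, Sycp3). Capitals in Msh5 read the motif on the other strand. Sycp3 has the E-box at 46 and at 25 bases before the start.
Meiosin: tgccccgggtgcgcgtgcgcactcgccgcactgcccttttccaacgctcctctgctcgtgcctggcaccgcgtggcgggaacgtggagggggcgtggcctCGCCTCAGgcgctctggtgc
Prdm9: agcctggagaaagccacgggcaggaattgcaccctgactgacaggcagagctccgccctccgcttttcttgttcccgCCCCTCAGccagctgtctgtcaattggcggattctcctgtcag
Msh5: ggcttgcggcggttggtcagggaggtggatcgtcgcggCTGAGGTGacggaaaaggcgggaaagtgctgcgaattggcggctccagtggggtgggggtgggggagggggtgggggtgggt
Meiob: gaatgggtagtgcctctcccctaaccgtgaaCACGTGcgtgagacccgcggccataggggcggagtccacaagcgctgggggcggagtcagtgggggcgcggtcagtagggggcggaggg
Tex12: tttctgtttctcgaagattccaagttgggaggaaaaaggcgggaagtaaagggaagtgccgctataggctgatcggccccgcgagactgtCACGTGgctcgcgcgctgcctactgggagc
Sycp3: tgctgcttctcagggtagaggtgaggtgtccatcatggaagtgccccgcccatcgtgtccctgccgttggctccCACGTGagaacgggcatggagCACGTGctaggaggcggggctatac

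**Figure D2:**
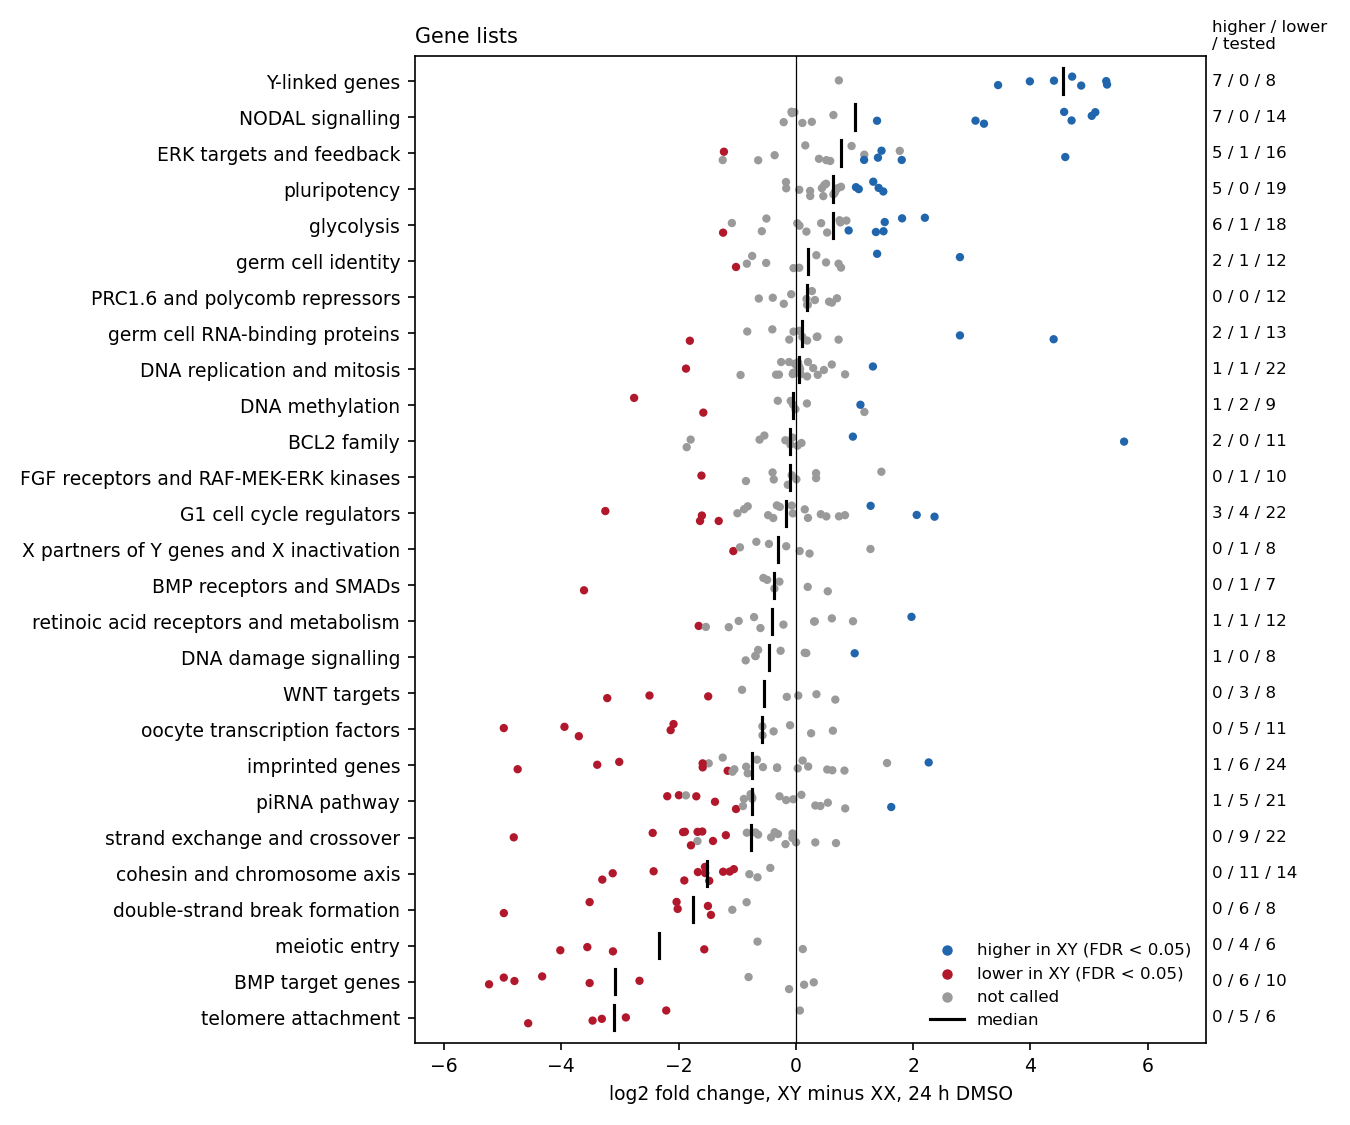
The log2 fold change (XY minus XX, 24 h DMSO) of each tested gene in 27 gene lists, ordered by the list's median (black line). Points are genes, blue where higher in XY, red where lower and grey where not called, and the numbers at the right count higher, lower and tested genes. The telomere, BMP target and meiotic entry lists lie at the low end, and the Y-linked and NODAL lists at the high end.

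Of 13 germ cell RNA-binding protein genes, 2 (Nanos2 and Nanos3) were higher and 1 lower, beside 4.00% higher and 5.99% lower among all tested genes. Nanos2 (ENSMUSG00000051965, chr7:18721325-18722887, + strand), a translational repressor that marks male germ cells, stood at 11.9, 37.5, 13.8 and 24.1 CPM in the XY and at 0.311, 0, 4.96 and 2.39 CPM in the XX libraries (log2 fold change 4.40 ± 0.65, FDR 7.48e-06). The groups did not overlap, and XY replicate 3 was the highest. Nanos3, its relative that protects early germ cells, was at 79.8, 126, 41.9 and 99.5 CPM in the XY and at 7.78, 11.8, 10.4 and 17.6 CPM in the XX libraries (log2 fold change 2.80 ± 0.30, FDR 9.64e-08). Dnd1, which partners NANOS proteins, was not a DEG (0.73 ± 0.15, FDR 0.683), nor were Dazl (-0.04) and Elavl2 (0.19). The lower gene was Nanos1 (-1.81 ± 0.45), which was not a DEG in 6 of 8 omissions (-2.20 to -1.58, FDR 0.0532 to 0.130, without XY replicate 2, 3 or 5 or XX replicate 5, 6 or 9). After subtraction Nanos2 differed by 5.36 and Nanos1 by -2.55.

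The piRNA pathway, which silences transposons in male germ cells, had 1 higher and 5 lower genes among 21 tested (median log2 fold change -0.74, and -0.31 after subtraction), beside 4.00% higher and 5.99% lower among all tested genes. Of the 21, 3 were lower by DESeq2 and 6 by edgeR. With no filter on low counts 1 of 22 was lower, and leaving out 1 library gave 2 to 7 lower, the 2 without XY replicate 4, XY replicate 5 or XX replicate 6. Tdrd5, a granule protein, was at 134, 175, 126 and 146 CPM in the XY and at 47.0, 40.7, 54.0 and 47.1 CPM in the XX libraries (log2 fold change 1.63 ± 0.14, FDR 3.83e-08). Tex15, a piRNA effector also needed in meiosis, was at 71.0, 151, 82.9 and 99.8 CPM in the XY and at 361, 229, 498 and 275 CPM in the XX libraries (log2 fold change -1.70 ± 0.15, FDR 1.24e-07). Both kept the XY and XX libraries apart. Spocd1, an effector that recruits DNA methylation, was at 0.518, 10.4, 0.688 and 1.62 CPM in the XY and at 5.29, 6.62, 14.4 and 7.58 CPM in the XX libraries (log2 fold change -2.19 ± 0.58, FDR 0.0396). Here the groups overlapped, XY replicate 3 was the highest XY library, and the level at 72 h in XY was 197 ± 26.1 CPM. After subtraction the difference was 1.53 and Spocd1 was not a DEG (FDR 0.740). With the counts as deposited its call was lost in 6 of 8 omissions (-2.33 to -1.92, FDR 0.0545 to 0.155, without XY replicate 2, 4 or 5 or XX replicate 5, 6 or 9). Tdrd9, a helicase of the pathway, was at 3.11, 16.1, 3.44 and 7.03 CPM in the XY and at 22.7, 15.6, 48.6 and 24.7 CPM in the XX libraries (log2 fold change -1.99 ± 0.44, FDR 0.0155). XY replicate 3 lay within the XX range. Tdrd9 was not a DEG after subtraction (-2.10, FDR 0.195) or in 1 omission (-1.84, FDR 0.0697, without XY replicate 4). Mael and Tdrd7, the remaining lower genes, differed by -1.02 ± 0.14 and -1.38 ± 0.26. The call of Mael was lost in 3 omissions (-0.997 to -0.87, FDR 0.0854 to 0.224, without XY replicate 4 or 5 or XX replicate 6) and that of Tdrd7 in 4 (-1.52 to -1.27, FDR 0.0535 to 0.0665, without XY replicate 2 or 5 or XX replicate 4 or 6). Piwil4, the nuclear PIWI protein, was not a DEG (-0.76 ± 0.27, FDR 0.919), and changed sign after subtraction (0.89, FDR 0.887). Subtraction left 2 higher and 5 lower genes in the list, with Morc1 gained as higher (2.04, against 0.84 as deposited) and Fkbp6 (-0.95) and Gpat2 (-0.99) as lower.

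DNA methylation genes gave 1 higher and 2 lower of 9 tested, beside 4.00% higher and 5.99% lower among all tested genes. Dnmt3l (ENSMUSG00000000730, chr10:77877781-77899456, + strand), the cofactor of new methylation in male germ cells, stood at 0, 3.65, 1.03 and 1.35 CPM in the XY and at 7.16, 5.199, 19.3 and 5.99 CPM in the XX libraries (log2 fold change -2.76 ± 0.72, FDR 0.0227). XX replicate 6, whose index partner held the largest share relative to its own depth, was far above the other XX libraries. After subtraction the difference was -0.03 (FDR 1), so the lower level in XY was not seen there, and in XY at 72 h Dnmt3l reached 138 ± 29.0 CPM. Its call was also lost in 2 omissions (-2.55 to -2.18, FDR 0.0506 to 0.0774, without XY replicate 2 or XX replicate 6). Tet1 and Tet3, which oxidise methylated cytosine, differed in opposite directions, Tet1 by 1.101 ± 0.14 and Tet3 by -1.58 ± 0.27. The methyltransferases Dnmt1 (-0.31), Dnmt3a (-0.01) and Dnmt3b (1.17) were not DEGs.

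**Figure D3:**
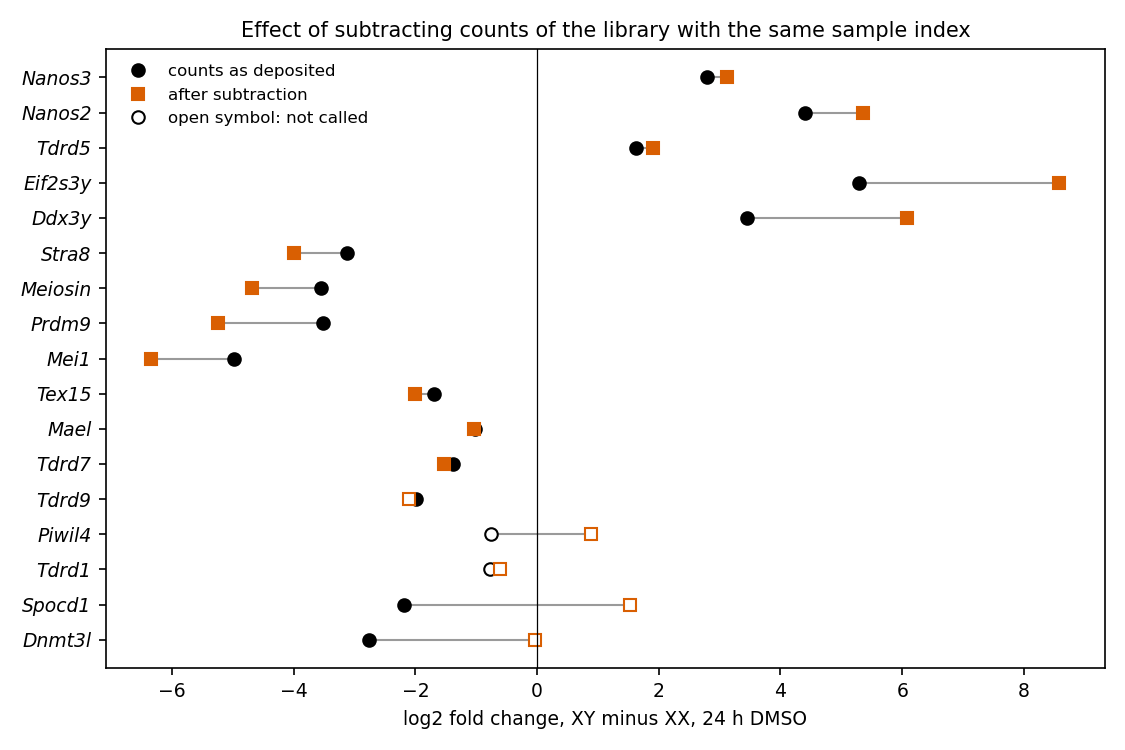
The log2 fold change (XY minus XX, 24 h DMSO) of 17 genes with the counts as deposited (black circles) and after subtraction of 3.79% of the counts of the library with the same sample index (orange squares). Open symbols are genes that were not called. Spocd1 and Dnmt3l move to or past 0, and Stra8 and Prdm9 move further from it.

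Pluripotency genes leaned towards XY. Of 19 tested, 5 were higher and 0 lower by limma treat, beside 4.00% and 5.99% of all tested genes, 17 had a positive fold change, and the median log2 fold change was 0.64, against -0.08 at 0 h. At an unadjusted p under 0.05, 5 were higher and 0 lower, and edgeR and DESeq2 gave the same 5 and 0. Utf1, a chromatin factor of stem and germ cells, stood at 655, 691, 461 and 544 CPM in the XY and at 182, 252, 163 and 244 CPM in the XX libraries (log2 fold change 1.41 ± 0.13, FDR 1.13e-06). Nanog, a core pluripotency factor, was at 53.9, 42.2, 66.0 and 73.3 CPM in the XY and at 24.9, 29.8, 12.4 and 19.6 CPM in the XX libraries (log2 fold change 1.49 ± 0.21, FDR 6.44e-04). The groups did not overlap for either gene. Zfp42 differed by 1.32 ± 0.15, Dppa4 by 1.07 ± 0.12 and Trim71 by 1.03 ± 0.13. Pou5f1, whose regulatory sequence drives the reporter used for the sort, was not a DEG (0.77 ± 0.14, FDR 0.460), and neither was Sox2 (-0.17). Of 12 germ cell identity genes, 2 were higher and 1, Mael, was lower, beside 4.00% higher and 5.99% lower among all tested genes. DESeq2 and the fit with no filter on low counts called 0 lower. Dppa3, a maternal and germ cell factor, was at 1995 ± 462 CPM in the XY and at 718 ± 149 CPM in the XX libraries (mean ± SD, n = 4 each), with log2 fold change 1.39 ± 0.16, FDR 1.57e-04. Its reads may be shared with the near-identical pseudogene Dppa3-ps on the X chromosome. The identity genes Ddx4 (-0.74), Dazl (-0.04), Kit (-0.51), Tfap2c (-0.84), Prdm1 (0.35) and Sall4 (0.52) were not DEGs.

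Transcripts that FGF and ERK signalling induce were higher in XY in 5 of 16 tested genes and lower in 1 (median log2 fold change 0.77, and 0.54 at 0 h), beside 4.00% higher and 5.99% lower among all tested genes. Etv1, an ETS factor, was at 57.5, 35.4, 79.8 and 51.9 CPM in the XY and at 3.42, 1.89, 0.991 and 1.996 CPM in the XX libraries (log2 fold change 4.59 ± 0.49, FDR 6.45e-09). Dusp6, a phosphatase that limits ERK, was at 26.4, 20.8, 29.6 and 31.1 CPM in the XY and at 9.96, 4.73, 5.95 and 11.2 CPM in the XX libraries (log2 fold change 1.81 ± 0.30, FDR 0.00147). Both were higher in all 4 XY libraries than in any XX library. Dusp4, a second phosphatase, differed by 1.46 ± 0.21. Il17rd, an inhibitor of FGF receptors, differed by 1.16 ± 0.18 (but 1.09, FDR 0.0647, without XX replicate 5), Spry2 by 1.40 ± 0.31 and Dusp5 by -1.23 ± 0.21. Spry2 was at the threshold (FDR 0.0499) and its call was lost in 7 of 8 omissions (1.33 to 1.45, FDR 0.0672 to 0.145, without XY replicate 2, 3 or 5 or XX replicate 4, 5, 6 or 9). That of Dusp5 was lost in 2 omissions (-1.24 to -1.08, FDR 0.0767 to 0.121, without XY replicate 5 or XX replicate 4). Etv4 (1.17) and Etv5 (0.95) were not DEGs (FDR 0.0764 and 0.0580). Among 10 FGF receptors and kinases of the cascade, Fgfr3 was lower in XY (log2 fold change -1.61 ± 0.30, FDR 0.0101) and the rest were not DEGs. For the induced transcripts, edgeR called 8 higher and 2 lower, DESeq2 4 and 1, and leaving out 1 library gave 3 to 6 higher, the 3 without XX replicate 5, and 0 to 1 lower, the 0 without XY replicate 5. After subtraction Fos was also lower (-1.40, FDR 0.0483).

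Of 22 G1 regulators, 3 were higher and 4 lower, beside 4.00% higher and 5.99% lower among all tested genes. Cdkn1b, which encodes the cell cycle inhibitor p27, stood at 16.6, 22.9, 13.4 and 20.02 CPM in the XY and at 4.98, 4.25, 6.94 and 2.79 CPM in the XX libraries (log2 fold change 2.06 ± 0.38, FDR 0.00258). Cdk6, a G1 kinase, was at 88.7, 100.02, 78.4 and 95.5 CPM in the XY and at 13.7, 19.4, 15.9 and 20.8 CPM in the XX libraries (log2 fold change 2.37 ± 0.22, FDR 5.49e-09). Ccnd1, the cyclin that binds CDK4 and CDK6, was at 16.6, 16.1, 18.2 and 14.6 CPM in the XY and at 151, 151, 200.2 and 135 CPM in the XX libraries (log2 fold change -3.25 ± 0.19, FDR 4.10e-16). The inhibitor and the kinase gene were higher, and the cyclin lower, in every XY than in any XX library. Cdk4 differed by 1.28 ± 0.11, Ccne2 by -1.32 ± 0.18, Cdkn2d by -1.603 ± 0.16, and E2f2 by -1.63 ± 0.33 (but -1.503 to -1.47, FDR 0.0590 to 0.142, without XY replicate 5 or XX replicate 4). Replication and mitosis genes were mostly uncalled, with 1 higher (Aurkb, 1.31), 1 lower (Ccnb3, -1.87, but -1.64, FDR 0.0772, without XY replicate 5) and 20 uncalled of 22. The median was 0.05, with 13 positive and 9 negative fold changes. Mki67 (0.08), Pcna (0.06) and Top2a (0.02) were among the uncalled. After subtraction Cdkn1c (-1.01) of the G1 list and Rrm2 (-1.01) of the replication list were also lower.

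In the BCL2 family, which controls apoptosis, Pmaip1 had the highest fitted fold among higher DEGs with non-overlapping groups for the counts as deposited, though not after subtraction. This gene for the NOXA protein was at 63.8, 64.6, 64.3 and 73.3 CPM in the XY and at 1.56, 1.42, 0.496 and 1.197 CPM in the XX libraries (log2 fold change 5.60 ± 0.49, FDR 9.66e-12). Every XY library was far above every XX library, and the difference after subtraction was 6.36. Bax, an executor of apoptosis, differed by 0.97 ± 0.13 (but 0.88 to 0.91, FDR 0.0744 to 0.145, without XY replicate 2 or XX replicate 4), and the other 9 tested members were not DEGs. After subtraction Bcl2, an inhibitor of apoptosis, was lower (-2.13, against -1.86 and FDR 0.0585 as deposited), and edgeR called 2 members lower. Of 8 DNA damage genes, Trp53 was higher (1.003 ± 0.13), a call lost in 3 omissions (0.86 to 0.92, FDR 0.108 to 0.113, without XY replicate 4 or 5 or XX replicate 6). Glycolysis genes were higher in 6 of 18 and lower in 1 (median 0.64), beside 4.00% higher and 5.99% lower among all tested genes. Pdk1, which keeps pyruvate out of the mitochondrial cycle, was at 143, 152, 151 and 143 CPM in the XY and at 30.8, 30.7, 28.2 and 34.7 CPM in the XX libraries (log2 fold change 2.20 ± 0.18, FDR 2.67e-10). The glucose transporter gene Slc2a1 differed by 1.81 ± 0.16, Hk2, a hexokinase gene, by 1.495 ± 0.21, Eno1 by 1.52 ± 0.11 and Ldhb by 1.37 ± 0.13. Pkm differed by 0.90 ± 0.11 and its call was lost in 4 omissions (0.83 to 0.87, FDR 0.0697 to 0.136, without XY replicate 2 or 3 or XX replicate 4 or 9). Ldha, the lactate dehydrogenase gene, went the other way, at 28, 33.3, 23.4 and 20.3 CPM in the XY and at 57.6, 52.5, 47.1 and 63.9 CPM in the XX libraries (log2 fold change -1.24 ± 0.19, FDR 0.00791), and its call was lost in 3 of 8 omissions (-1.15 to -1.01, FDR 0.0506 to 0.211, without XY replicate 4 or 5 or XX replicate 9).

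Some Y-linked genes were far higher in XY, although the XX libraries held some of their counts. Of 18 Y-linked genes tested, 8 (44.4%) were higher in XY, beside 4.00% of all tested genes. These were Ddx3y, Eif2s3y, Kdm5d, Uty, Zfy1, Zfy2, Uba1y and Gm2098. The rest were not DEGs, with log2 fold changes from -0.30 for Rbmyf6 to 2.44 for Uba1y-ps1. Eif2s3y (ENSMUSG00000069049, chrY:1008409-1047462, + strand), which encodes a translation initiation factor, stood at 127, 117, 118 and 137 CPM in the XY and at 2.18, 2.36, 8.42 and 3.19 CPM in the XX libraries (log2 fold change 5.29 ± 0.37, FDR 3.93e-15). XX replicate 6 held the most of it among the XX libraries. After subtraction the median log2 fold change of the 8 listed Y genes was 6.16, against 4.56 as deposited, and Eif2s3y differed by 8.58. The share subtracted was set from these same genes in the XX libraries, so their larger folds after subtraction follow from that choice. Usp9y had a log2 fold change of 0.73 ± 0.66 and was not a DEG, with 2.42 after subtraction.

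X-linked genes were shifted towards XX. Of 635 tested, 99 (15.6%) were lower and 12 (1.89%) higher in XY, beside 796 (5.55%) lower and 583 (4.07%) higher of 14335 autosomal genes. The median log2 fold change of X-linked genes was -0.31, and autosome medians ran from -0.10 to 0.13. On the log2 CPM scale the mean of X-linked minus autosomal genes was -0.459 ± 0.075 in XY and -0.141 ± 0.035 in XX libraries (SD, n = 4 each). The difference was -0.32 (exact two-sided permutation test, p = 0.0286, the smallest that 70 regroupings allow). Without XX replicate 6 and XY replicate 3 the difference was again -0.32, with p = 0.1, the smallest that 3 against 3 allows by the exact permutation test. At 0 h the X-linked median was -0.24 and at 72 h -0.11. Kdm6a, an X-linked histone demethylase gene with a partner on the Y, was at 37.3, 32.8, 48.8 and 47.6 CPM in the XY and at 108, 82.2, 108 and 79.4 CPM in the XX libraries (log2 fold change -1.07 ± 0.14, FDR 0.0114). Its call was lost in 1 omission (-0.98, FDR 0.0653, without XX replicate 4), Zfx was not called as deposited (-0.95) but was lower after subtraction (-1.04), and Ddx3x (0.06) and Kdm5c (-0.46) were not DEGs. Xist, the RNA that silences an X chromosome in XX cells, was not a DEG at 24 h, at 8.81, 20.3, 8.25 and 10.3 CPM in the XY and at 5.91, 2.84, 7.43 and 3.19 CPM in the XX libraries (log2 fold change 1.27 ± 0.43, FDR 0.331). The highest value was in XY replicate 3, and at 0 h the difference had the opposite sign (-2.21). Its antisense partner Tsix was not tested. The 10 X-linked genes higher in XY with the largest folds were Asb9 (3.63), Slc7a3 (3.38), Armcx4 (2.71), Dppa3-ps (2.03), Gpc4 (1.96), Fam236f (1.95), Amot (1.58), Sh3bgrl (1.56), Tceal8 (1.498) and Gm6798 (1.33). After subtraction Asb9 differed by 5.31. Calls were lost for Armcx4 in 1 omission (1.64, FDR 0.254, without XX replicate 9), for Gpc4 in 4 (1.80 to 2.02, FDR 0.0507 to 0.122, without XY replicate 4 or XX replicate 4, 5 or 9) and for Sh3bgrl in 4 (1.37 to 1.53, FDR 0.0547 to 0.111, without XY replicate 4 or 5 or XX replicate 5 or 6).

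**Figure D4:**
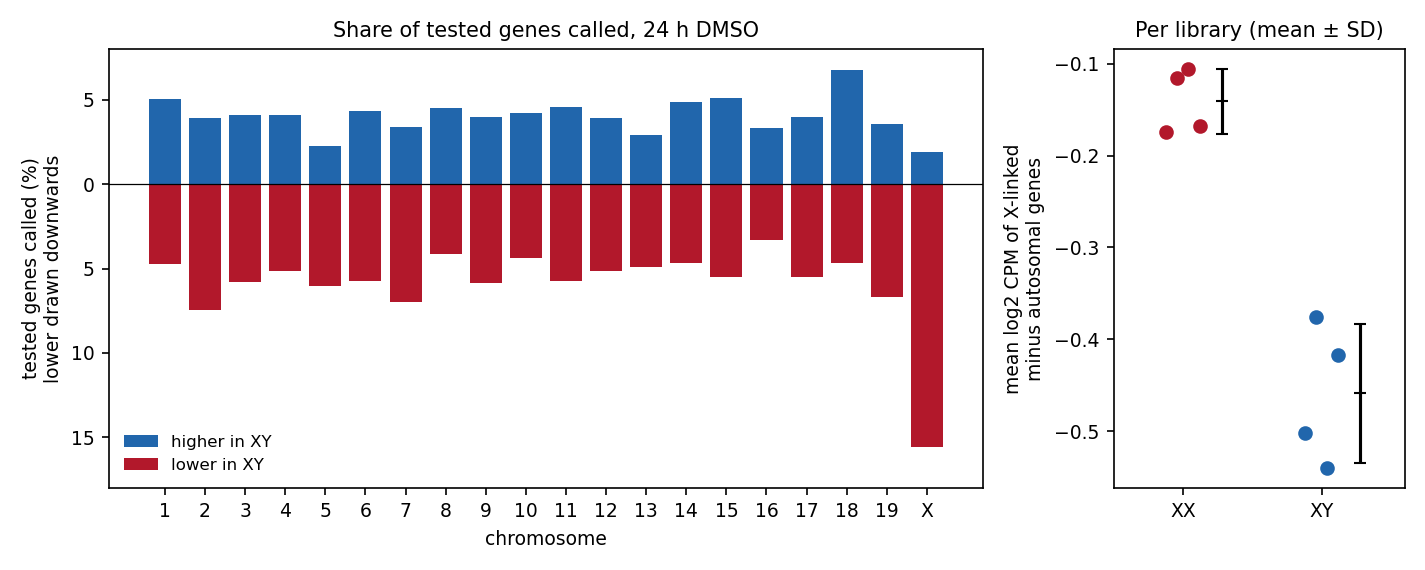
Left, the share of tested genes on each chromosome called higher (up) or lower (down) in XY germ cells, in percent. Right, the mean log2 CPM of X-linked minus autosomal genes in each library with the group mean ± SD (n = 4 each). The X chromosome has the longest lower bar, 15.6%.

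The largest folds took in genes outside these lists. Cbr3, a carbonyl reductase gene, was at 7.78, 12.5, 8.25 and 10.3 CPM in XY and had no count in XX, at least 31.7-fold higher against a floor of 3 counts over the group. Ccdc141 was at 16.1, 38.5, 16.2 and 20.3 CPM in the XY and at 0.622, 0.945, 0.496 and 0 CPM in the XX libraries (log2 fold change 5.15 ± 0.78, FDR 8.26e-06). Khdc3, known from the oocyte's subcortical complex, was at 26.4, 24.5, 31.3 and 29.2 CPM in the XY and at 0.311, 1.89, 0 and 1.197 CPM in the XX libraries (log2 fold change 4.96 ± 0.58, FDR 3.83e-08). All 3 were near or at 0 in each XX library. Elobl had 97 counts in the XY and 2 in the XX libraries, a ratio of 45.7 (95% interval 12.3 to 383), and the lncRNA Gm15915 had no count in XX and was at least 18.5-fold higher in XY.

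On the lower side, Sct, the secretin gene, was at 0.518, 1.04, 0.688 and 0.271 CPM in the XY and at 34.5, 55.3, 36.2 and 44.7 CPM in the XX libraries (log2 fold change -6.07 ± 0.69, FDR 9.15e-09). Pparg, a nuclear receptor, had no count in XY and 6.85, 7.56, 20.8 and 6.39 CPM in XX, at least 34.0-fold lower in XY. Tsbp1 had 2 counts in the XY and 246 in the XX libraries, a ratio of 130.5 (95% interval 35.7 to 1084) in favour of XX, and none in the XY libraries after subtraction. None of these 3 overlapped between the sexes. Prom1 (-5.35 ± 0.65), Npw (-5.01 ± 0.51), which encodes a neuropeptide, Zfp541 (-4.85 ± 0.61), a meiotic chromatin factor at -5.70 after subtraction, and Tgfa, with 1 count in the XY and 61 in the XX libraries, completed the 12 lower genes together with Gata2, Msx1, Msx2, Mei1 and Rad51ap2.

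By difference in mean CPM, the higher DEGs were led by Dppa3, Set, Hnrnpa1, Sdc4, Ktn1 and Utf1. Sdc4, a cell surface proteoglycan gene, was at 625, 681, 419 and 493 CPM in the XY and at 93.0, 120.1, 218 and 114 CPM in the XX libraries (log2 fold change 2.13 ± 0.15, FDR 5.33e-12, and 2.73 after subtraction). Set, a histone chaperone gene, was at 775 ± 70.4 CPM in the XY and at 321 ± 51.6 CPM in the XX libraries, and Hnrnpa1, a splicing factor gene, at 662 ± 119 and 216 ± 29.2 CPM (mean ± SD, n = 4 each). Ktn1 differed by 0.87 ± 0.09 and its call was lost in 1 omission (0.80, FDR 0.0843, without XY replicate 2). The lower DEGs were led by Smc1b, Stra8, ENSMUSG00000097436, Zcwpw1, Sycp3 and Sycp1. ENSMUSG00000097436, with no symbol in the annotation, was at 63.3, 23.4, 84.9 and 61.9 CPM in the XY and at 520.3, 659, 417 and 499.7 CPM in the XX libraries (log2 fold change -3.19 ± 0.21, FDR 1.15e-14). Zcwpw1, a reader of the marks that PRDM9 writes, was at 283 ± 34.3 CPM in the XY and at 664 ± 165 CPM in the XX libraries (mean ± SD, n = 4 each). Between the deepest and the shallowest XY library, the median ratio of counts was 1.96 for genes with 100 to 300 counts and 1.23 for the 2 genes above 7000, beside a ratio of totals of 1.85. The part this has in the differences of abundant genes was not tested.

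For 69 genes (0.452%), the difference between XY and XX at 24 h differed from that at 0 h by the test of the change itself, 36 upwards (0.236%) and 33 downwards (0.216%). Of these, 28 of 36 and 17 of 33 were also DEGs at 24 h in the same direction. After subtraction, 96 (0.633%) changed upwards and 88 (0.580%) downwards, among them 35 of the 36 and 24 of the 33. The subtraction altered the 0 h counts too. Without XY replicate 5 the downward changes fell to 19, and edgeR gave 80 upward and 97 downward. Nanos3 was at 41.1 ± 6.20 CPM in the XY and at 29.4 ± 4.795 CPM in the XX libraries at 0 h, and at 86.9 ± 35.4 and 11.9 ± 4.13 CPM at 24 h (mean ± SD, n = 4 each). The change in its log2 difference was 2.41 ± 0.38, FDR 0.00376. Pdzk1, a scaffold protein gene, was at 65.8, 169, 67.4 and 92.8 CPM in the XY and at 8.09, 12.3, 14.4 and 12.4 CPM in the XX libraries, a change of 3.48 from 0 h (FDR 5.35e-05). Ddr2, a collagen receptor gene, was at 8.30, 4.69, 5.85 and 3.79 CPM in XY with no count in XX, at least 17.6-fold higher at 24 h, and changed by 5.79 (FDR 7.53e-04). All XY libraries exceeded all XX libraries for these 3 genes at 24 h. Adcy10 (5.09, and 4.43 with FDR 0.0640 after subtraction) and Sytl3 (3.67) were also among the 5 largest upward changes in genes whose groups did not overlap at 24 h.

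Downward, Prom1, a membrane glycoprotein gene, was at 0, 0, 1.72 and 0.271 CPM in the XY and at 18.05, 15.1, 13.4 and 24.3 CPM in the XX libraries, a change of -3.69 (FDR 0.0112). Its groups did not overlap. Htra3, a protease gene, changed by -5.49 (FDR 7.97e-04). Dnmt3l (-6.32), Drc1 (-4.88) and Ankrd33b (-3.61) completed the 5 largest downward changes in genes whose groups did not overlap at 24 h, and none of these last 3 passed after subtraction, where the changes were -0.67, -0.59 and -3.40. The piRNA genes Spocd1 (-6.93), Tdrd9 (-4.05) and Tdrd1 (-1.90) and the ovarian factor Sohlh1 (-3.36) also passed as deposited and did not after subtraction (0.17, -2.35, -0.97 and -0.91).

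**Figure D5:**
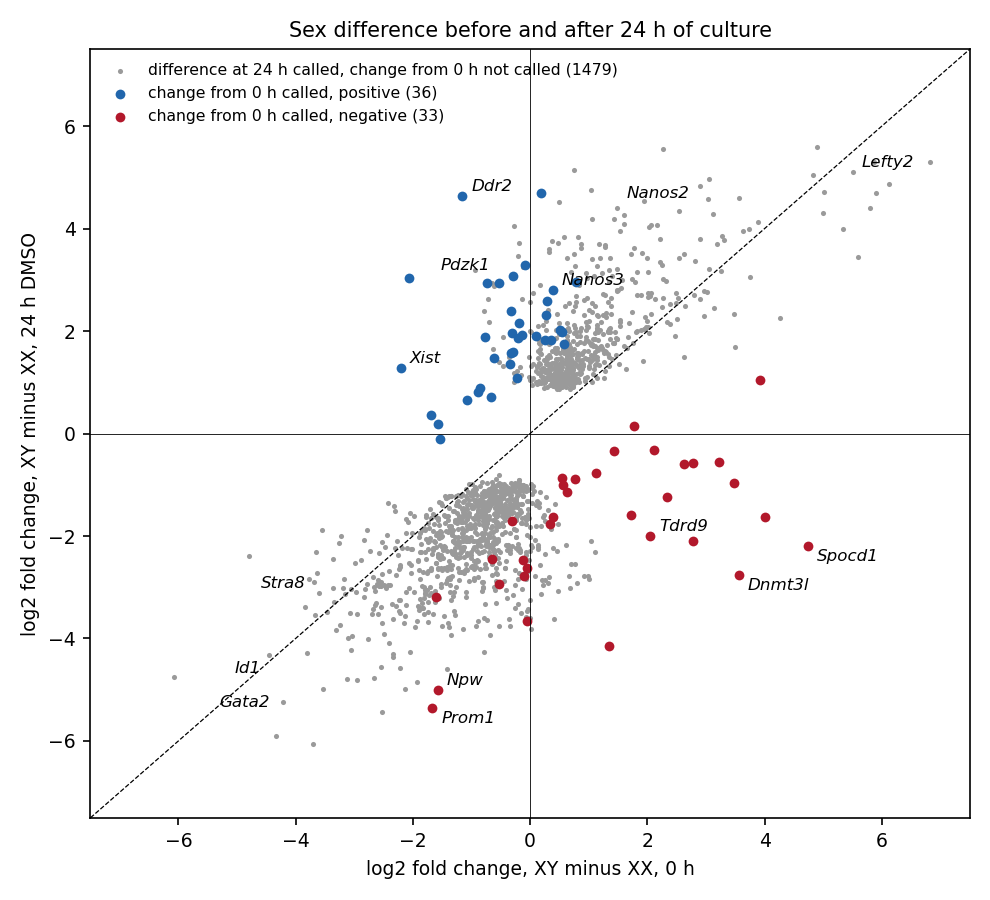
The log2 fold change (XY minus XX) at 0 h against that at 24 h in DMSO for every gene called at 24 h or called for its change from 0 h. Grey points are genes without a called change, blue and red points the 36 and 33 genes with an upward or downward change, and the dashed line marks equal differences. Genes were chosen by their 24 h difference or its change, so the distance from the dashed line is partly fixed by the choice.

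Some DEGs had the opposite direction after 72 h in DMSO. Lower in XY at 24 h and higher at 72 h were 82 genes (8.97% of the lower DEGs, beside 22.8% of all tested genes higher at 72 h), of which 74 were still lower at 24 h after subtraction, and higher at 24 h and lower at 72 h were 8 (1.31% of the higher DEGs, beside 18.1% of all tested genes lower at 72 h), all 8 of which kept their call after subtraction. The examples named here were chosen after their values were seen. Etv1 had the largest log2 fold change at 24 h of the 8 (4.59). It was at 56.2 ± 18.3 CPM in the XY and at 2.08 ± 1.01 CPM in the XX libraries at 24 h and 2.67 ± 1.44 and 9.47 ± 2.26 CPM at 72 h (mean ± SD, n = 4 each). Rbfox3, a splicing regulator gene, was at 2.01 ± 1.57 and 9.90 ± 3.84 CPM at 24 h and 41.5 ± 11.7 and 4.20 ± 2.01 CPM at 72 h. The change between 24 h and 72 h was not tested for these genes.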

How the data were processed

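Germ cells were measured by 3' RNA-seq with sample indexes and UMIs added at poly(A) priming, in 2 pools of 20 libraries sequenced on a NextSeq 2000. The authors aligned reads with Rsubread to GRCm39 and counted deduplicated UMIs per gene with scPipe, with counting set to use strand. The deposited values are raw counts per Ensembl gene for 42422 genes. The annotation release used for counting is not given in the sources used here. Symbols and coordinates came from GENCODE M39, which matched 40391 identifiers. Groups were read from the library names in the labels.

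All 40 libraries in 10 groups were fitted with limma (3.58.1) voom with quality weights, TMM factors from edgeR (4.0.16) and filterByExpr (minimum count 10, total 15), which left 15252 genes. Contrasts were tested with treat at 1.5-fold and Benjamini-Hochberg FDR under 0.05. As the submitters' processing notes name limma and edgeR, these were kept as the main tools. Exact permutation tests over libraries were two-sided. Intervals of count ratios are exact at 95% and, like the floor of 3 counts, cover counting error only. Named genes were all list members, the 12 higher and 12 lower non-overlapping DEGs by fold, 6 and 6 by CPM difference, 5 and 5 non-overlapping by change from 0 h, 10 X-linked genes and every Y-linked gene. Some of these genes are not reported here. The 32 lists (413 entries) and the comparison were chosen with earlier results of these data known. Alternatives were edgeR glmTreat, DESeq2 (1.42.0), eBayes, other scalings and filters, fewer libraries, a replicate block and index subtraction. The script was tested on simulated data.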

Additional observations from a re-analysis of the deposited data

Results flagged for a closer look

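In 15 of the 114 groups of 4 libraries examined, 1 library lay apart from the other 3 by more than Dixon's 95% limit. For normally distributed values chance gives about 1 such case in 20 groups. That rate does not hold for groups near 0 CPM, such as Tsbp1 and Prom1 in XY. XX replicate 6 was the highest of its group for Sycp3 (809 CPM), Figla (72.3 CPM), Dnmt3l (19.3 CPM), Pparg (20.8 CPM) and Eif2s3y (8.42 CPM). XX replicate 5 was the highest for Lefty1 (8.51 CPM) and the lowest for Otx2 (0.945 CPM). Among the XY libraries, replicate 2 was the highest for Id3 (51.3 CPM) and Smc1b (915 CPM), and replicate 3 for Spocd1 (10.4 CPM) and Xist (20.3 CPM). Replicate 4 was the highest for Meiosin (2.41 CPM) and Prom1 (1.72 CPM), and replicate 5 for Pmaip1 (73.3 CPM) and Tsbp1 (0.541 CPM).

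For 23 of the genes named, the XY minus XX difference changed between 0 h and 24 h by the test of the change itself (limma treat). Upward changes on the log2 scale were 5.79 for Ddr2, 5.09 for Adcy10, 3.67 for Sytl3, 3.48 for Pdzk1, 3.48 for Xist, 2.41 for Nanos3, 2.26 for Fam236f, 1.91 for Amot, 1.76 for Tet2, 1.51 for Dppa3-ps, 1.43 for Id4 and 1.39 for Fbxo15. Downward changes were -6.93 for Spocd1, -6.32 for Dnmt3l, -5.49 for Htra3, -4.88 for Drc1, -4.05 for Tdrd9, -3.69 for Prom1, -3.61 for Ankrd33b, -3.43 for Npw, -3.36 for Sohlh1, -1.90 for Tdrd1 and -1.59 for ENSMUSG00000097436. After subtraction of the counts of the library with the same sample index, 8 of the 23 no longer passed: Adcy10, Spocd1, Dnmt3l, Drc1, Tdrd9, Ankrd33b, Sohlh1 and Tdrd1. Other named genes passed only after subtraction, among them Mei1 (-5.98), Rad51ap2 (-5.77), Zfp541 (-5.50), Tsbp1 (-4.44), Ccdc141 (5.38) and Asb9 (4.30). The causes were not tested.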

How the results depend on the processing

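The counts of DEGs depended most on the test. With edgeR glmTreat, 979 genes were higher and 1381 lower in XY at 24 h, and 80 and 97 changed upwards and downwards from 0 h. With limma eBayes and an observed fold over 1.5, the counts were 1920, 2379, 578 and 719. DESeq2 gave 583 and 899 at 24 h. Leaving out 1 library at a time gave 499 to 621 higher and 655 to 891 lower DEGs, and 26 to 39 upward and 19 to 41 downward changes, the 19 without XY replicate 5. Subtracting the counts of the library with the same index gave 96 upward and 88 downward changes, and with it Spocd1 reversed, to 1.53 at 24 h and 0.17 for its change from 0 h. XY and XX shared replicate numbers 4 and 5 only, and deviations from the group means correlated at 0.15 and -0.016, so the numbers were not taken as pairs. With the replicate block, 584 genes were higher and 613 lower, and downward changes fell to 11. The block also left 3 of 8 break, 6 of 22 crossover, 2 of 21 piRNA and 0 of 9 DNA methylation genes lower. Without XX replicate 6 and XY replicate 3 together, chosen after seeing the data, the X-linked difference was -0.32 with an exact permutation p of 0.1. Endothelial markers reversed to 3.10 CPM higher in XY without Pecam1, which germ cells also express. Of 156 named DEGs, 115 kept their call under every setting that tested them. The causes were not tested. In these data 3 counts over a group set the floor, so folds against groups at 0 are lower bounds. On simulated counts for these libraries, 96% of 4-fold and 25% of 2-fold differences at 24 h were recovered, and 86% and 7% of such changes from 0 h. The changed genes were drawn only from those above a minimum expected count, so these shares do not cover genes with few counts. Counts from a shared index were not simulated.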

Other observations

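Imprinted genes, which are expressed from 1 parental allele in most tissues, were mostly lower in XY or uncalled. Of 24 tested, 1 was higher and 6 lower, with a median log2 fold change of -0.74, beside 4.00% higher and 5.99% lower among all tested genes. Phlda2, a growth-limiting gene of the distal chromosome 7 cluster, stood at 2.59, 5.73, 1.38 and 2.71 CPM in XY replicates 2, 3, 4 and 5 and 78.7, 71.8, 43.1 and 94.6 CPM in XX replicates 4, 5, 6 and 9 (log2 fold change -4.74 ± 0.46, FDR 3.44e-10). Mest, the higher gene, was at 57.0, 53.7, 92.8 and 76.6 CPM in the XY and at 10.3, 21.7, 9.91 and 16.8 CPM in the XX libraries (log2 fold change 2.27 ± 0.25, FDR 4.35e-07). Both had no overlap between the sexes. Plagl1 (-3.01), Slc22a18 (-3.39) and Gnas (-1.59) were also lower, as were Grb10 and H19, 2 calls that were lost in some omissions of a library (Grb10 -1.59 to -1.37, FDR 0.0526 to 0.190, without XY replicate 4 or 5, and H19 -1.12 to -0.89, FDR 0.0615 to 0.426, without XY replicate 4 or 5 or XX replicate 4). After subtraction Cdkn1c (-1.01) and Zdbf2 (-1.17) were also lower. Among 8 WNT target genes, 3 were lower. Notum, a secreted WNT inhibitor, was at 1.04, 1.56, 2.06 and 0.541 CPM in the XY and at 11.8, 9.93, 7.43 and 10.8 CPM in the XX libraries (log2 fold change -3.22 ± 0.53, FDR 1.17e-04), with no overlap. Nkd1 differed by -2.50 ± 0.41, Apcdd1 by -1.49 ± 0.27 (but -1.35, FDR 0.118, without XY replicate 5), and Axin2 was not a DEG (-0.92 ± 0.17, FDR 0.177).

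Oocyte transcription factors were lower in 5 of 11 tested genes, beside 5.99% of all tested genes. Figla, which controls genes of the primordial follicle, was at 1.04, 6.25, 3.09 and 1.89 CPM in the XY and at 25.5, 25.1, 72.3 and 27.9 CPM in the XX libraries (log2 fold change -3.70 ± 0.52, FDR 5.34e-06), and XX replicate 6 was far above the rest. Irx3 (-3.95), Irx5 (-2.14), Msx1 and Ybx2 (-2.09) were lower too, and the call of Irx5 was lost in 1 omission (-1.81, FDR 0.143, without XY replicate 5). After subtraction Figla differed by -5.55. Nobox (0.26), Lhx8 (-0.10), Sohlh2 (-0.57) and Taf4b (-0.38) were not DEGs. In the retinoic acid list, Crabp1, a cytosolic binding protein gene, was lower (log2 fold change -1.66 ± 0.23, FDR 2.76e-04), Aldh1a2, a synthesis enzyme gene, was higher (1.97 ± 0.36, but 1.38, FDR 0.107, without XX replicate 9, and 3.07 after subtraction), and 10 of 12 were uncalled, among them the receptor genes Rara (0.61) and Rarg (0.32). After subtraction 1 of the 12 retinoic acid genes was higher and 2 were lower. None of the 12 PRC1.6 and polycomb genes, which repress meiotic genes in earlier germ cells, was a DEG by limma treat, edgeR or DESeq2. At an unadjusted p of limma treat under 0.05, 0 were higher and 0 lower, with log2 fold changes from -0.63 (Cbx2) to 0.70 (E2f6). Treat tests against a 1.5-fold change, so smaller differences are not covered. With limma eBayes and an observed fold over 1.5, 2 were higher and 1 lower. The XY and XX values did not overlap for 5 of the 12, beside 33.2% of all tested genes.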
